A study of Drosophila melanogaster with 24 samples.

Results

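Genes whose FlyBase name is CR followed by digits are annotated transcription units that are not thought to encode a protein. The 128 described here were chosen by their level, a median over 24 RNA-seq libraries of *Drosophila melanogaster* heads that reached 5 FPKM, a unit of fragments counted relative to transcript length and sequencing depth. They were taken from 2646 CR genes and 17637 genes in all, of which 6834 reached that median. Since the genes were selected on this level, it is given only as a description.

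The libraries came from heads of the strain w[1118], a *white* mutant with the control genotype of the study. Old flies (55 days) and young flies (5 days) carried no other allele and received no treatment. They were kept in a light-dark cycle of 12 h each and, per the methods of the study, were mated females whose heads were pooled. Heads of each age were taken at 6 Zeitgeber times (ZT, counted in h from lights on), ZT 0, 4, 8, 12, 16 and 20, and every age and time is represented by 2 libraries. The comparisons ask how the level of each gene differed between old and young heads, whether it followed a 24 h course at each age, and whether that course changed with age. The study calls the 2 libraries of a time biological replicates, and the labels do not say how the flies behind them were kept apart. Per the study, the replicates cover a single daily cycle, and the deposited values lay them end to end. The first and second daily cycle named below are these 2 sets of libraries, not successive days.

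Long noncoding RNAs are transcribed and often spliced and polyadenylated like messenger RNAs, yet are not translated into a long protein. An antisense RNA is read from the opposite strand of another gene and can share sequence with its messenger RNA. The nervous system of the fly is known for many such transcripts, most of them without an assigned function, so CR genes are described below mainly by the genes they overlap.

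Markers of photoreceptors, neurons, glia, head fat body and muscle were expressed at both ages, whereas the 6 ovary markers summed to at most 4.48 scaled FPKM in any library. Scaled FPKM are the deposited values of a library divided by its median ratio to the average library. The 4 male markers found summed to 19.1 to 84.1 in old heads and 11.2 to 55.7 in young heads, mostly *roX1*. Sums of the 5 photoreceptor markers overlapped between ages, with 11375 to 16527 in old heads and 15129 to 17990 in young heads. So did those of the 5 glia markers, with 1231 to 2166 and 1683 to 2431. Summed levels of the 5 neuron markers ranged 582 to 928 scaled FPKM in old heads and 993 to 1465 in young heads, without overlap, and all 5 had a lower median in old heads. The 4 muscle markers likewise summed to 466 to 612 in old heads and 642 to 920 in young heads. The 5 head fat body markers summed to 4353 to 8363 in old heads and 9926 to 24526 in young heads. In deposited FPKM, before the scaling, a lower median in old heads held for 3 of the 4 muscle markers and 3 of the 5 fat body markers. The other deposited medians, in old and young heads, were 72.0 and 70.4 for *up*, 30.1 and 29.9 for *to* and 12.5 and 2.73 for *Lsp2*. The fat body sum is mostly *Yp1*, a yolk protein gene. The part of these shifts in the results below was not tested, and in such bulk RNA fewer cells of a type and less RNA per cell cannot be told apart. Replicate libraries of the same age and time correlated at r between 0.950 and 0.977. FPKM keeps no read numbers, so the depth per library is unknown and precision rests on the spread between libraries alone.

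Of the 128 genes, 125 were found in a later annotation of the same assembly (BDGP6), which lists 77 as long noncoding RNAs, 39 as antisense RNAs, 8 as pseudogenes and 1 as protein coding. CR18854, CR46201 and CR41544 were not matched. The transcripts were mostly short and simple, with a median of 814 exonic bases (range 201 to 10400) and a single exon in 75. Exonic bases were shared with a gene on the opposite strand in 57, and for 32 of these at least 50% of the exonic length was shared. In 22 genes they were shared with a gene on the same strand, and 50 shared none with any gene. The libraries were strand-specific, but whether reads were counted by strand is not given in the sources used here, so the reads of an antisense gene and its partner may not have been separated, and overlapping genes on the same strand cannot be.

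The highest levels belonged to few genes. CR42862 on chromosome 3L had a median of 901 FPKM, CR42491 on X 662, CR43051 on 2L 230, CR43916 on 3L 133 and CR44832 on X 126. Medians of 100 FPKM or more were found for 6 genes, and 59 lay under 10 FPKM. Just inside the threshold were CR43958 and CR45880, both at 5.05, and CR32218 at 5.02, and just outside were CR6900 at 4.97 and CR43963 and CR46262, both at 4.94. The median was at least 5 FPKM at both ages in 112 genes, in old heads only in 11 and in young heads only in 5. All but 5 genes were above 0 in every library. CR44999 and CR45204 were listed at 0 in 2 old libraries each, CR44268 in 1 young library, CR45865 in 1 old and 3 young libraries, and CR40469 in 2 young libraries.

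CR42491 shares 377 of its 747 exonic bases with *RpL22*, a ribosomal protein gene on the same strand. Its scaled FPKM ranged from 176 to 1611 (median 735) in old heads and from 99.3 to 1576 (median 617) in young heads, with the ages overlapping almost completely. It moved against *RpL22* from library to library, with r = -0.84 in the 12 old and -0.93 in the 12 young libraries, libraries in which both genes also share reads. At ZT 16 its 2 libraries were far apart at both ages, with 1119 and 176 in old heads and 1216 and 99.3 in young heads. CR43051 is listed as protein coding under the name CG43051 in the later annotation and holds a small nucleolar RNA gene. It measured 133 to 348 scaled FPKM (median 181) in old heads and 171 to 612 (median 310) in young heads, and was lower in old heads by -0.80 on the log2(scaled FPKM + 1) scale (adjusted p = 0.000523 in limma). CR43916 had medians of 136 in old heads and 132 in young heads (log2 difference 0.00, adjusted p = 0.998 in limma).

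To find the genes whose level differed with age, these scaled values were compared. The log2 scaling factors were higher in old than in young libraries by 0.22 on average. The median difference of all genes was 0.22 before the scaling and 0.03 after it, so changes are given relative to that shift. All differences are on the log2(scaled FPKM + 1) scale, which understates the change of low genes, with Benjamini-Hochberg adjusted p-values from limma over 9809 genes and 12 libraries per age. At an adjusted p of at most 0.01, 15 of the 128 CR genes were higher in old heads (11.7%, against 20.5% of all genes tested) and 36 were lower (28.1%, against 20.9% of all genes tested). That makes 51 called in all, or 39.8%, against 41.4% of all genes tested. A gene that reached the median of 5 FPKM only through the age at which it was high was selected partly on that difference. Its difference is therefore a description, although not every such gene was called. Of the 112 genes at or above 5 FPKM at both ages 10 were higher (8.93%) and 31 lower (27.7%), whereas 5 of the 11 that reached it in old heads only were higher and all 5 that reached it in young heads only were lower. The median difference was -0.15 for the CR genes. Without the scaling 23 CR genes were higher and 21 lower, against 43.5% and 10.8% of all genes, and the median of the CR genes was 0.05 instead of -0.15. All 51 called genes kept their direction in that setting, with 15 of the 15 higher and 21 of the 36 lower still called. Calls were 29.4% higher ones with the scaling and 52.3% without it.

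The larger changes were spread over both directions. A difference of at least 2-fold on the log2(scaled FPKM + 1) scale was found in 6 higher genes (4.69%, against 1.55% of all genes tested) and 4 lower genes (3.12%, against 1.15%). In scaled FPKM itself, low genes can change by more than this scale shows. Of these, CR44138, CR43461, CR45882 and CR45880 reached the median of 5 FPKM in old heads only, and CR44716 and CR45125 in young heads only. The shares of CR genes therefore rest partly on how the genes were chosen and are a description. The old and young libraries did not overlap at all in 4 higher genes (3.12%, against 4.65% of all genes) and in 8 lower genes (6.25%, against 7.06%). Those 4 include CR44138 and CR45880. Taken time by time, the old pair lay above the young pair at all 6 times in 10 of the 15 higher genes. It lay below the young pair at all 6 times in 20 of the 36 lower genes. Both counts are over genes called on these same libraries, so they describe the calls and lend them no support. The matching share over all genes is not given. Of the 77 genes without a call, 43 had a difference within 0.2 of 0, and the spread between replicate libraries was larger for CR genes (median SD 0.28 in log2) than for other genes of at least 5 FPKM (0.14).

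**Figure D1:**
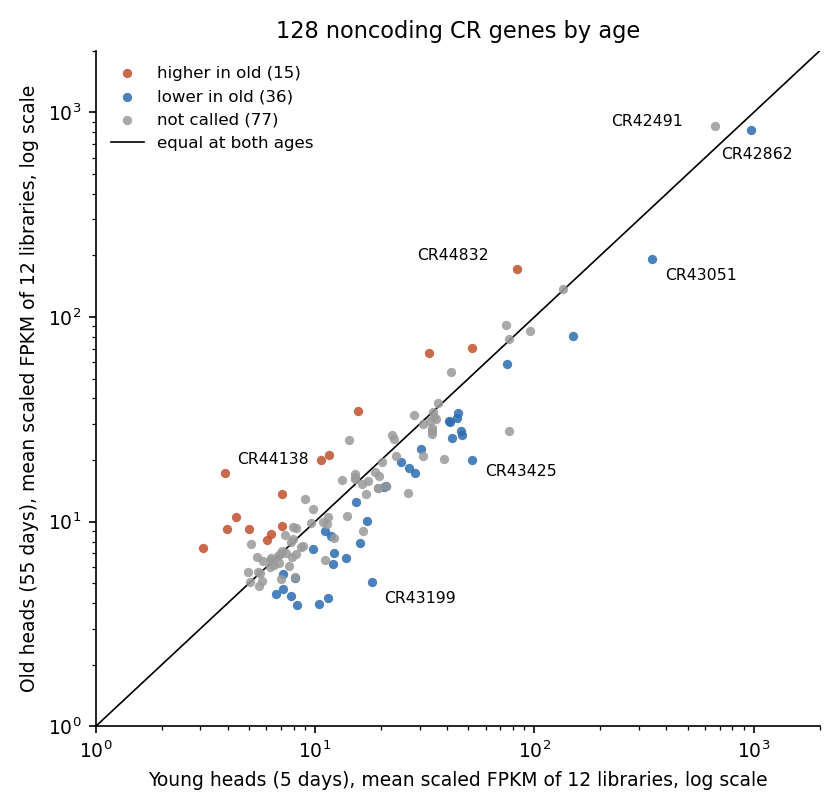
Mean scaled FPKM of each of the 128 CR genes in 12 old libraries (vertical axis) and 12 young libraries (horizontal axis), both on log scales. Orange points are the 15 genes higher in old heads, blue points the 36 lower in old heads and grey points the 77 not called by limma, and the line marks equal levels. CR44138 lies furthest above the line and CR43199 furthest below it.

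The largest rise was that of CR44138, a single-exon gene of 493 bases on 3R (13376903 to 13377395) within *CG9813* but on its opposite strand, without shared exonic bases. It measured 8.82 to 30.6 scaled FPKM (median 16.2) in old heads and 2.24 to 7.28 (median 3.45) in young heads, so that every old library exceeded every young one. The log2 difference was 1.88 ± 0.17 (SE, n = 12 each). As its median of deposited values was 18.2 FPKM in old heads and 3.23 FPKM in young heads, it was included through old heads, and so were CR43461, CR45882 and CR45880 among the 6 largest rises. For these 4 the difference is given as a description, with no test. *CG9813* itself went the other way, with a median of 156 in old heads and 230 in young heads (log2 difference -0.53, adjusted p = 8.77e-07 in limma).

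CR44832 was the tightest of the rises. This gene of 585 bases lies on X (5790952 to 5791536), 33 bases from *CG15767* on the opposite strand, which was at or near 0. It ranged from 149 to 205 scaled FPKM (median 171) in old heads and from 72.8 to 93.4 (median 81.8) in young heads, with no overlap. Its log2 difference was 1.05 ± 0.06 (SE, n = 12 each, adjusted p = 8.60e-14 in limma).

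A pair of neighbours on 3L rose together. CR45880 (11667278 to 11667898) and CR45882 (11668211 to 11668877) lie 313 bases apart on the plus strand. CR45880 measured 5.20 to 9.50 scaled FPKM (median 7.21) in old heads and 1.40 to 4.83 (median 3.14) in young heads, without overlap. CR45882 measured 5.80 to 13.5 (median 8.49) in old heads and 1.56 to 8.16 (median 3.51) in young heads, and 2 young libraries reached into the old range. Both differed by 1.08 on the log2 scale (SE 0.13 and 0.18), again as a description. CR45882 shares 276 exonic bases with *CG32085* on the opposite strand, which had a median of 9.88 in old heads and 14.9 in young heads (log2 difference -0.57, adjusted p = 1.55e-09 in limma).

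CR44127 on 2R (5967397 to 5967746) and CR43461 on X (6732717 to 6735917) completed the 6 largest rises. CR44127 measured 14.98 to 54.2 scaled FPKM (median 35.1) in old heads and 6.20 to 32.9 (median 14.96) in young heads, with overlap (log2 difference 1.19 ± 0.24, adjusted p = 0.000215 in limma, and 0.0550 in the first daily cycle alone). CR43461 measured 5.96 to 14.1 (median 10.9) in old heads and 2.25 to 7.68 (median 4.10) in young heads, with a single old library in the young range (1.15 ± 0.16, a description). The genes beside them rose as well. *CG7881*, 541 bases from CR44127 on the same strand, differed by 0.86, and *CG3168*, whose span holds CR43461 on the other strand, by 0.34 (adjusted p = 1.09e-07 and 0.00149 in limma).

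The largest fall was that of CR43199, a gene of 2 exons and 1736 exonic bases on X (7450383 to 7452199), which lies 10 bases from *CG11368* on the same strand. It measured 3.17 to 6.72 scaled FPKM (median 5.47) in old heads and 11.9 to 22.9 (median 17.6) in young heads, so the ages did not overlap. The log2 difference was -1.66 ± 0.12 (SE, n = 12 each, adjusted p = 1.26e-11 in limma). *CG11368* was also lower in old heads, with medians of 601 and 830 for old and young heads (log2 difference -0.44, adjusted p = 0.000286 in limma).

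CR44716 on 3L (11250450 to 11250868) and CR44219 on 2L (262203 to 263003) lie wholly against exons of an opposite-strand gene. CR44716 measured 1.88 to 7.65 scaled FPKM (median 3.88) in old heads and 6.95 to 14.3 (median 12.1) in young heads (log2 difference -1.31 ± 0.16), while its partner CR44717 never exceeded 0.47. It was included through young heads, with deposited medians of 4.12 FPKM in old heads and 10.7 FPKM in young heads, and its difference is a description with no test. CR44219 measured 4.21 to 10.3 (median 6.57) in old heads and 9.63 to 17.04 (median 14.2) in young heads (-0.97 ± 0.12, adjusted p = 1.01e-07 in limma). In each, a single old library reached into the young range. The partner of CR44219, *CG17075*, fell by 0.79 on the log2 scale (adjusted p = 1.49e-15 in limma).

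**Figure D2:**
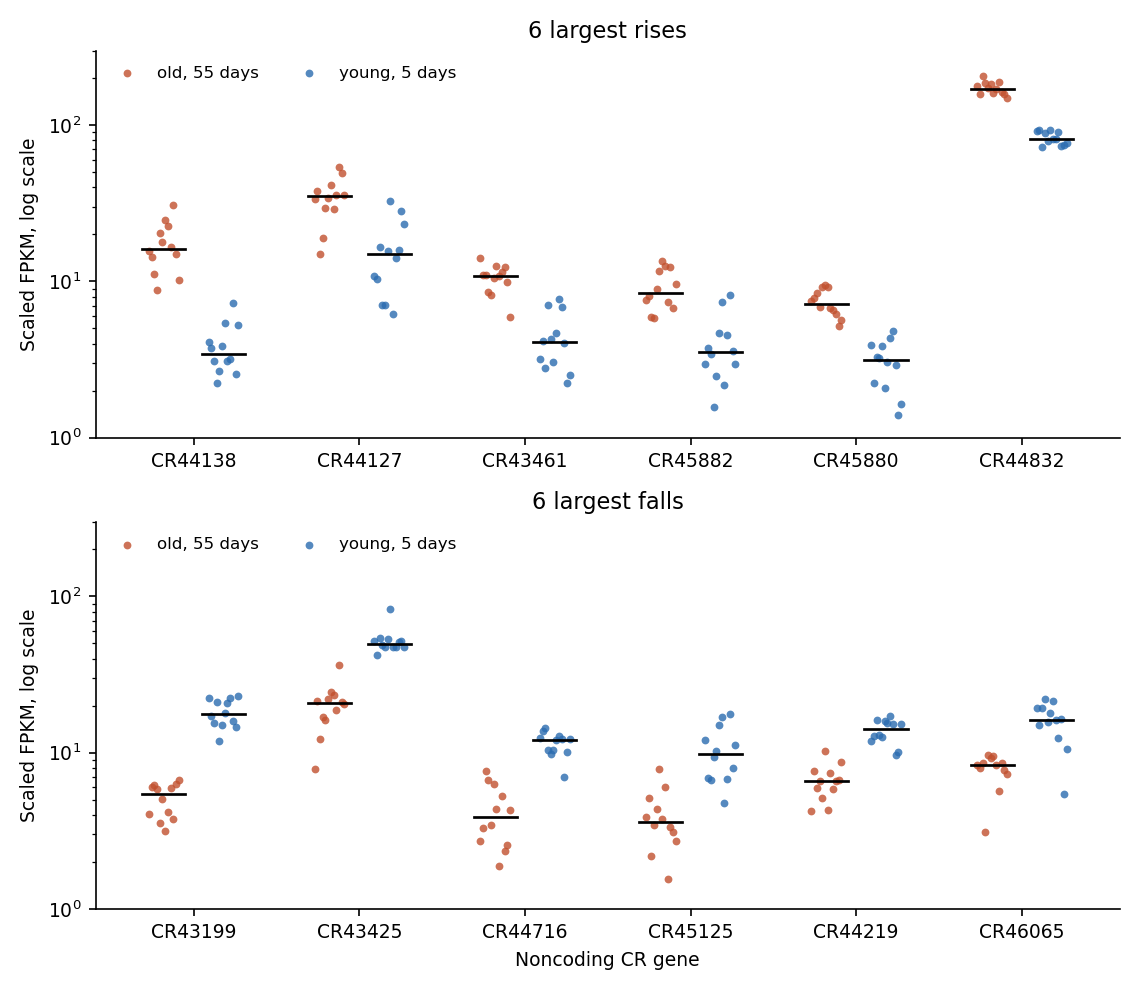
Scaled FPKM (log scale) of the 6 CR genes with the largest rises (top) and the 6 with the largest falls (bottom), with 12 old libraries (orange, left) and 12 young libraries (blue, right) for each gene and black bars at the medians. CR44138, CR45880 and CR44832 do not overlap between ages among the rises, nor do CR43199 and CR43425 among the falls.

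Chromosome 4, which is small and largely heterochromatic, held 13 of the CR genes and 3 of the 6 largest falls. On it 7 were lower in old heads and 1 higher, with a median difference of -0.58. Other genes of this chromosome were also often lower, 48 of 84 (57.1%) with a median of -0.25. Over all 97 of its genes tested, the 13 included, 55 were lower (56.7%). Without the scaling 6 of the 13 and 29 of the 97 were lower (29.9%), and the medians were -0.39 and -0.04. With the scaling, the share of CR genes lower on chromosome 4, 53.8%, was near the 57.1% of its other genes. Without it, the share was larger among the 13 than among the 97.

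The 3 falls named on chromosome 4 all lie on the strand opposite to a protein-coding gene. CR45125 (380724 to 381275) lies on the opposite strand within *dati*, which encodes a zinc finger protein. It measured 1.55 to 7.89 scaled FPKM (median 3.59) in old heads and 4.73 to 17.7 (median 9.79) in young heads, with overlap (log2 difference -1.20 ± 0.20). It was likewise included through young heads, so this is a description with no test. CR46065 (228576 to 229112) is antisense to *yellow-h*, of the Yellow family of secreted proteins. It measured 3.12 to 9.59 (median 8.30) in old heads and 5.41 to 22.2 (median 16.3) in young heads, where a single low library made the overlap (-0.91 ± 0.17, adjusted p = 9.87e-05 in limma, and 0.0422 in the first daily cycle alone). The partners of both were lower too, *dati* by -0.33 and *yellow-h* by -1.02 (adjusted p = 5.73e-07 and 2.21e-09 in limma).

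The third, CR43425, is one of 3 CR genes antisense to *unc-13*, which encodes a protein that primes synaptic vesicles for release. CR43425 (867824 to 871426) lies against the 3' end of *unc-13*, CR44029 (879374 to 884752) against its middle and the pseudogene CR43361 (905179 to 907924) near its start. They did not move alike. CR43425 measured 7.87 to 36.6 scaled FPKM (median 20.8) in old heads and 42.0 to 82.9 (median 49.9) in young heads, without overlap. CR44029 measured 21.04 to 40.2 (median 26.1) in old heads and 39.4 to 71.8 (median 42.1) in young heads, with a single old library reaching into the young range. CR43361 measured 10.9 to 17 (median 13.2) in old heads and 4.77 to 9.29 (median 6.94) in young heads, without overlap.

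The log2 differences were -1.39 ± 0.16 for CR43425, -0.72 ± 0.10 for CR44029 and 0.87 ± 0.09 for CR43361 (SE, n = 12 each, adjusted p = 4.18e-08, 1.07e-06 and 4.81e-09 in limma). *unc-13* measured 155 to 223 scaled FPKM (median 186) in old heads and 197 to 275 (median 232) in young heads, a difference of -0.28 (adjusted p = 0.000183 in limma). Between 705 and 3528 exonic bases of each of the 3 CR genes also belong to *unc-13* on the other strand. CR43361 was higher and *unc-13* lower in old heads. The part of shared reads in these values was not tested. CR44029 and CR43361 were chosen after their values were seen.

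**Figure D3:**
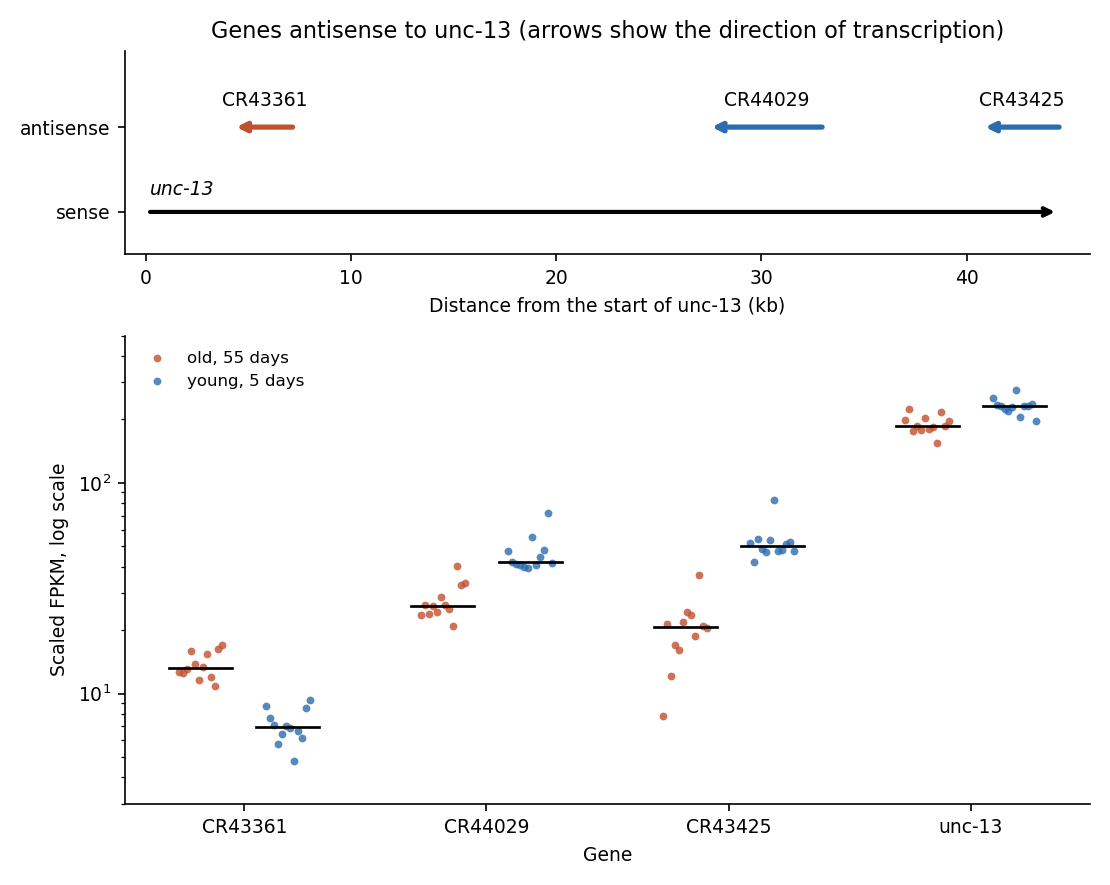
Position of 3 CR genes on the strand opposite to *unc-13*, in kb from its start (top; arrows give the direction of transcription, orange higher and blue lower in old heads), and scaled FPKM (log scale) of all 4 genes in 12 old (orange, left) and 12 young (blue, right) libraries with bars at the medians (bottom). CR43361 has a median of 13.2 in old and 6.94 in young heads, whereas the other 3 genes are lower in old heads.

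Across all CR genes with an overlapping gene or a nearest gene within 1 kb that could be tested, 101 pairs, the difference with age had the same sign in 68. In 22 pairs both genes were called, of which 18 changed in the same direction and 4 in opposite directions. Exonic bases are shared on the same strand in 20 of the 101 pairs and on the opposite strand in 46, where reads may count for both genes. These hold 3 and 13 of the 22 pairs. No share for neighbouring genes in general is given, so the counts are a description. The 18 include CR44986 and *Gpdh*, the glycerol-3-phosphate dehydrogenase gene it opposes over its whole length. CR44986 measured 12.7 to 24.1 scaled FPKM (median 18.3) in old heads and 21.98 to 32.2 (median 26.6) in young heads. It differed by -0.54 ± 0.10 and *Gpdh* by -0.88 (adjusted p = 6.21e-05 and 3.05e-10 in limma). CR42860, antisense to *sls*, which encodes a titin-like muscle protein, measured 16.5 to 29.2 (median 20.8) in old heads and 8.25 to 18 (median 11.6) in young heads. It rose by 0.84 ± 0.10 and *sls* by 0.54 (adjusted p = 2.30e-07 and 5.39e-09 in limma). The 4 opposite pairs were CR44138 with *CG9813*, CR45882 with *CG32085*, CR43361 with *unc-13* and CR43480 with *CG17162*, and in all 4 the CR gene was higher in old heads, lay on the opposite strand, and had a lower partner. CR44138 and CR45882 count here although they were included through old heads. CR44986 and CR42860 were chosen after their values were seen.

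**Figure D4:**
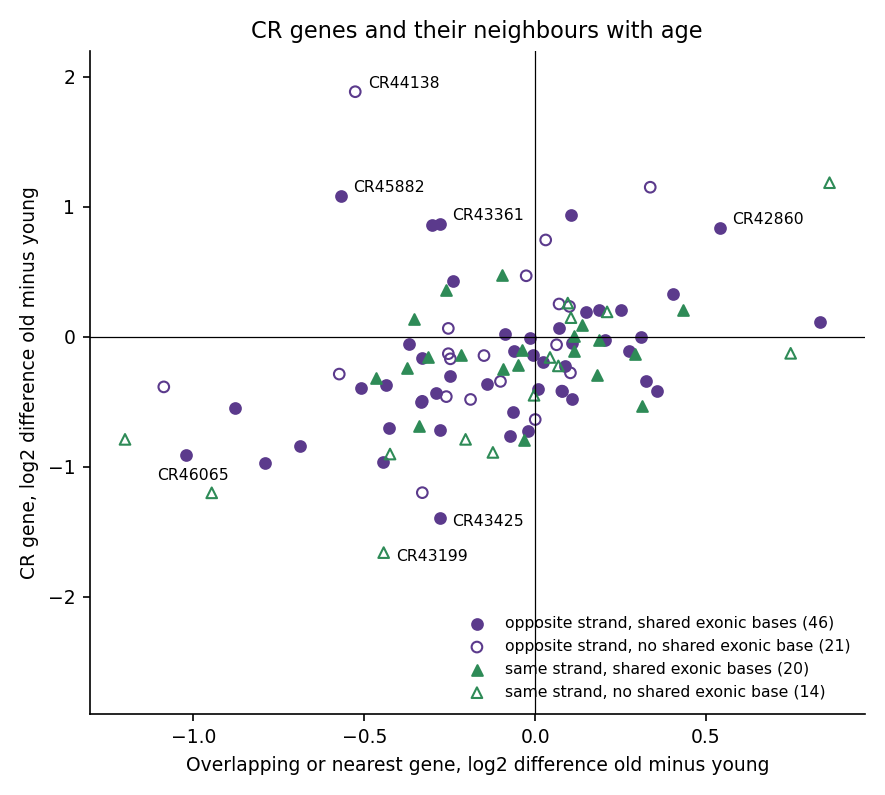
Log2 difference old minus young of 101 CR genes (vertical axis) against that of the overlapping gene or the nearest gene within 1 kb (horizontal axis). Filled symbols share exonic bases, circles lie on opposite strands and triangles on the same strand, and CR44138, CR45882 and CR43361 stand in the upper left, higher in old heads with a neighbour that is lower.

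By kind, 8 of the 77 long noncoding RNAs were higher and 22 lower in old heads. Of the 39 antisense RNAs 4 were higher and 11 lower, and of the 8 pseudogenes 3 were higher and 2 lower. The shares to set beside these and the next counts are 11.7% higher and 28.1% lower among the 128 CR genes. Among all genes tested they are 20.5% and 20.9%. Differences between the subsets were not tested. Median differences were -0.15, -0.16 and 0.23 for the 3 kinds. Of the 22 genes that share exonic bases with a same-strand gene, 0 were higher and 6 lower. Of the 57 that share them with an opposite-strand gene, 8 were higher and 20 lower. Among the 50 that share none with any gene, 7 were higher and 11 lower. The most abundant of all, CR42862, measured 686 to 929 scaled FPKM (median 836) in old heads and 756 to 1149 (median 968) in young heads. It shares 246 exonic bases with *CG33229* on the same strand, which was lower by -0.38 (adjusted p = 0.000387 in limma). CR42862 was lower by -0.24 ± 0.07 (adjusted p = 0.00577 in limma) and lost that call without the scaling (-0.02, adjusted p = 0.843).

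Rhythm was tested as a 24 h cosine in the 12 libraries of each age, and called where the adjusted p was 0.05 or less and the highest library exceeded the lowest at least 1.5-fold. In old heads 15 CR genes were rhythmic (11.7%, against 8.97% of all genes tested) and in young heads 9 (7.03%, against 7.76%). Both ages called 7 (5.47%, against 3.51%): CR45456, CR45457, CR45894, CR44301, CR44121, CR44662 and CR45180, of which CR44662 was named after its values were seen. The count in old heads depended on single libraries. It was 7 or 9 without the second or the first library of ZT 8, 9 without the second of ZT 4, 8 without the second of ZT 12 and 24 without the first of ZT 16, and in young heads it was 3 when time of day was fitted as 6 separate levels. Within a single daily cycle as named here, a single replicate with 6 libraries per age, limma called 0 at either age. At an unadjusted p of at most 0.05 and the same fold, it called 15 or 22 in old heads and 15 or 13 in young heads. The median fitted amplitude was 0.22 in old heads and 0.21 in young heads for CR genes, and 0.14 and 0.13 for all genes, on the log2 scale, with CR genes also the noisier between replicates.

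The strongest courses were those of CR45456 (9325845 to 9326721) and CR45457 (9327039 to 9327553), which follow each other on the plus strand of 2L. Both peaked in the light phase. CR45456 had 28.7 and 32.3 scaled FPKM at ZT 8 and 1.24 and 2.10 at ZT 0 in old heads, against 71.6 and 55.3 at ZT 8 and 3.33 and 3.53 at ZT 0 in young heads. Its fitted amplitude was 2.03 in old heads and 2.29 in young heads (adjusted p = 0.000594 and 6.80e-05 in limma), with peaks at ZT 7.96 and 8.18. For CR45457 the amplitudes were 2.02 and 2.44 (adjusted p = 0.000492 and 0.000839 in limma), with peaks at ZT 8.24 and 8.68 in old and young heads. Over the 24 libraries the course most like both was that of their downstream neighbour *CG17005* (r = 0.99 and 0.98), over libraries that share the same daily times. In scaled FPKM, CR45457 ranged from 3.11 to 69.9 in old heads and from 5.45 to 192 in young heads. The paper reports a reduced amplitude with age for circadian genes at the *Cks30A* locus, which lies further downstream on the plus strand.

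CR45894 is antisense to *Pdh* on 3L (16353498 to 16353916), with 355 of its 419 bases opposite exons of that gene, which encodes a retinal dehydrogenase of the visual pigment cycle. It peaked late in the night. In old heads it had 15.6 and 14.8 scaled FPKM at ZT 0, 2.08 and 1.89 at ZT 8, and 22.8 and 16.9 at ZT 20. In young heads it had 32.3 and 25.6 at ZT 0, 7.85 and 13.7 at ZT 8, and 27.95 and 30.5 at ZT 20. The old pair was below the young pair at 5 of 6 times.

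Fitted amplitudes of CR45894 were 1.48 in old heads and 0.99 in young heads (adjusted p = 0.000161 and 0.0118 in limma), with peaks at ZT 21.5 and 22.6. The call in young heads was lost with 6 separate levels of time (adjusted p = 0.0620 in limma). *Pdh* was rhythmic as well, with amplitudes of 1.22 and 0.94 and peaks at ZT 1.05 and 1.16 in old and young heads (adjusted p = 0.000166 and 0.00127 in limma). With time of day in the model CR45894 was lower in old heads by -0.96 (adjusted p = 6.67e-05 in limma), which the comparison that ignored time did not call (adjusted p = 0.0378). The course most like it over the 24 libraries, again sharing the daily times, was that of *CG11891* (r = 0.90). *Hdc*, which encodes the enzyme that makes the photoreceptor transmitter histamine, followed with 0.88 and was named after its values were seen.

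CR44301 (2R, 10786195 to 10786493) and CR44121 (2L, 8205778 to 8206044), each a single exon of under 300 bases, were also high at night's end. CR44301 had 22.8 and 34.9 scaled FPKM at ZT 0, 13.7 and 13.3 at ZT 12 and 28.3 and 28.3 at ZT 20 in old heads. In young heads it had 56.5 and 56.99 at ZT 0, 22.3 and 13.4 at ZT 12 and 79.6 and 65.6 at ZT 20. Its amplitude was 0.63 in old heads and 1.04 in young heads (adjusted p = 0.0230 and 0.00228 in limma), and with time of day in the model its level was lower in old heads by -0.79 (adjusted p = 7.77e-05 in limma). *CG33144*, which spans it on the same strand without shared exonic bases, was lower by -0.20 and was not called rhythmic (adjusted p = 0.378 in old and 0.633 in young heads in limma).

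CR44121 had 28.01 and 38.1 scaled FPKM at ZT 0 and 4.68 and 3.62 at ZT 12 in old heads, against 44.3 and 33.3 at ZT 0 and 13.3 and 4.57 at ZT 12 in young heads. Its replicates disagreed at ZT 16 in old heads, with 4.36 and 25.5. Amplitudes were 1.47 and 1.18 in old and young heads (adjusted p = 0.0337 and 0.00545 in limma), and the call in young heads was lost with 6 separate levels of time (adjusted p = 0.0591). Its peak lay at ZT 21.3 in old heads and 23.8 in young heads, the largest shift among the 7 genes. *CG8419*, 127 bases away on the opposite strand, was rhythmic too, with peaks at ZT 19.8 in old heads and 20.2 in young heads (adjusted p = 0.000397 and 0.00108 in limma). Over the 7 the shift, old minus young, had a median of -0.43 h, and only CR44121 and CR44662 moved by at least 2 h, in opposite directions.

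**Figure D5:**
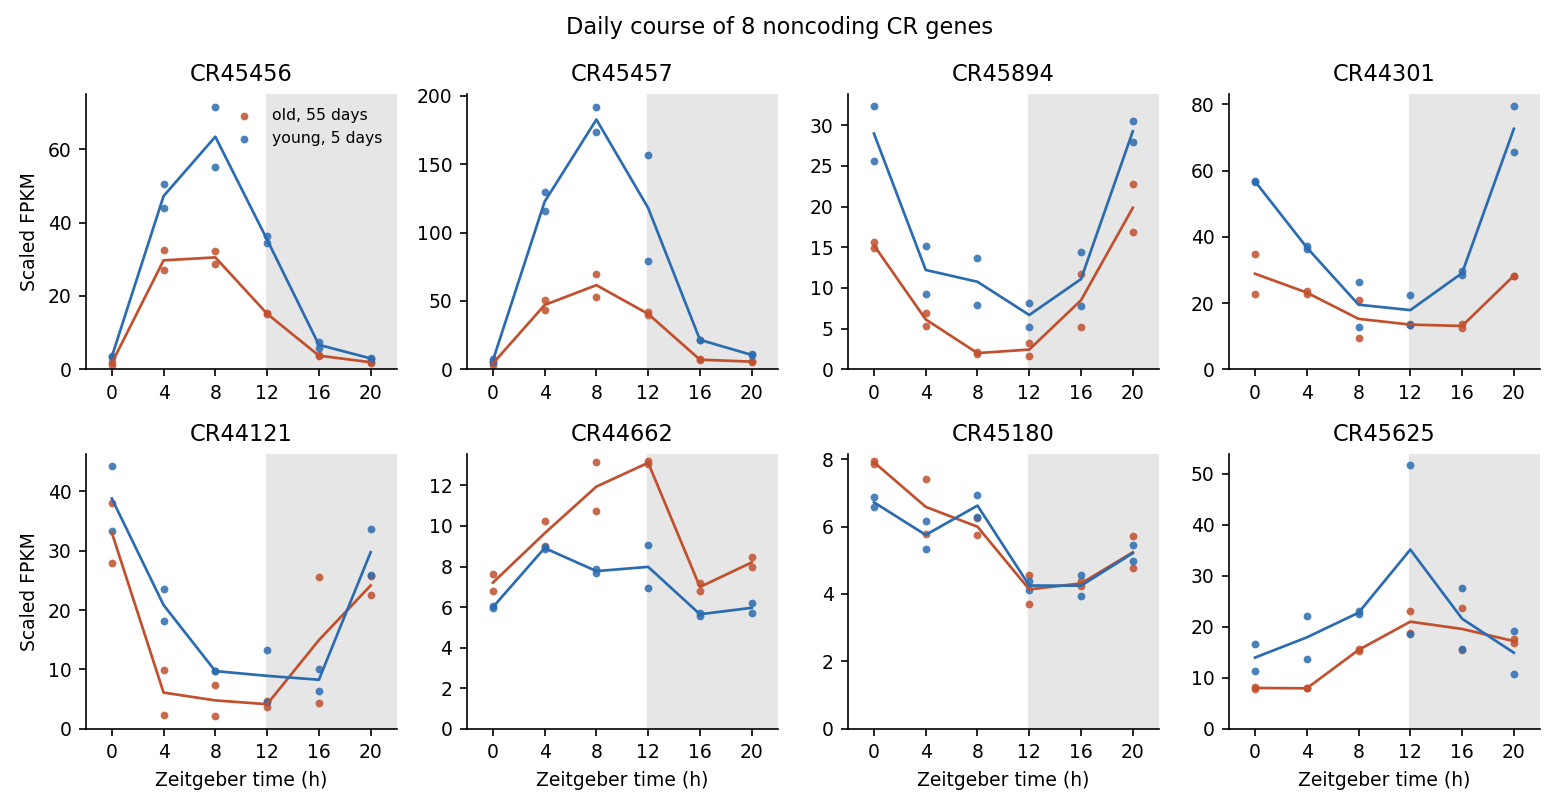
Scaled FPKM against Zeitgeber time (h) in old (orange) and young (blue) heads for the 7 CR genes rhythmic at both ages and for CR45625, rhythmic in old heads only; points are single libraries, lines join the mean of the 2 libraries at each time, and grey marks the dark phase. CR45456 and CR45457 are highest at ZT 8, while CR45894, CR44301 and CR44121 are highest at ZT 20 or 0.

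Other rhythmic genes had smaller amplitudes. CR45180 (3L, 25708177 to 25709251) had amplitudes of 0.38 in old heads and 0.27 in young heads (adjusted p = 0.00774 and 0.0453 in limma) and peaked early in the day. CR45625 (X, 12912560 to 12913009) was called in old heads only, with an amplitude of 0.71 and a peak at ZT 14.2 (adjusted p = 0.00277 in limma). It had 8.21 and 7.80 scaled FPKM at ZT 0 and 18.8 and 23.1 at ZT 12 in old heads, against 16.7 and 11.2 at ZT 0 and 51.7 and 18.5 at ZT 12 in young heads, where the replicates at ZT 12 lay far apart.

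CR44417 (2R, 17869027 to 17869857), within *Mapmodulin* on the other strand, was called in old heads with an amplitude of 0.43 and a peak at ZT 19.7 (adjusted p = 0.0190 in limma). It lost that call without either old library of ZT 8 (adjusted p up to 0.0570 in limma) and with 6 separate levels of time (0.0590). CR43480 (X, 23090324 to 23093609), which rose with age by 0.86, was called in young heads only, with an amplitude of 0.45 and a peak at ZT 4.48 (adjusted p = 0.0159 in limma, and 0.0510 with 6 separate levels of time). That CR45625, CR44417 and CR43480 passed at a single age does not show a difference between ages, since the change of rhythm gave adjusted p-values of 0.836, 0.966 and 0.870 for them in limma.

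No CR gene passed the test of a change of rhythm with age in limma (0 of 128, against 0.234% of all genes tested). This test was made on the log2(scaled FPKM + 1) scale, so it compares relative courses and not the range in FPKM. At an unadjusted p of at most 0.05 there were 8, or 6.25%, against 6.43% of all genes. The smallest p-values were those of CR40469, CR45873, CR45251 and CR44301 (adjusted p = 0.234, 0.698, 0.733 and 0.733 in limma). CR40469, of 214 bases on X, had a difference in amplitude of -0.56. In young heads it had 95.3 and 6.15 scaled FPKM at ZT 4 and 0 to 9.57 at the other times, and the difference was -0.01 without the first of these libraries. CR45873, antisense to *CG3437* on 3L, had amplitudes of 0.36 in old heads and 0.06 in young heads, with 14.5 and 16.95 at ZT 4 in old heads against 9.03 and 9.42 in young heads. CR45251 had 0.03 in old heads and 0.43 in young heads, where it was lowest at ZT 16 with 10.9 and 7.83.

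The age comparison treats all times alike, and a daily course then adds to the spread. With time of day in the model 17 CR genes were higher in old heads (13.3%, against 24.4% of all genes tested) and 43 lower (33.6%, against 24.2%). All 51 earlier calls were among them, and 9 were added. Those include 4 of the 7 genes rhythmic at both ages, CR45456, CR45457, CR45894 and CR44301, all lower in old heads.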

How the data were processed

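Heads of old and young flies were measured by RNA-seq of poly(A)-selected RNA with a strand-specific kit. Per the methods, the authors filtered and trimmed the reads (skewer), mapped them to dm6 (TopHat) and estimated abundance for FlyBase genes (Cuffdiff). The deposited values are FPKM per gene and library, in a table per age, beside ARSER results (p-value, false discovery rate, period, phase and amplitude), which were not used. Columns are named by hour, so each was assigned to an age and time but not to a numbered replicate. Hours past 20 are called the second daily cycle, although per the study they hold another biological replicate of the same cycle and not a second day.

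Each library was divided by its median ratio to the geometric mean library over 9162 genes above 0 throughout whose median reached 1 FPKM. The 235 microRNA hairpins were left out. Genes with a mean above 1 FPKM at either age (9809) were tested with limma 3.58.1 (eBayes with trend, R 4.3.3) on log2(scaled FPKM + 1) for the age effect, the cosine and sine of a 24 h period at each age, and the interaction of age with these. Summaries and plots were made with matplotlib 3.10.9, scipy 1.17.1, pandas 2.3.3 and numpy 2.4.6 under Python 3.11.15. The r given for neighbours and like courses is Pearson's on the same scale.

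CR genes named are the 6 largest rises and 6 largest falls called with age, the 6 smallest adjusted p-values for rhythm at each age, the 4 smallest p-values for the change of rhythm, the 5 highest medians, and 3 genes on either side of the threshold. Named beside them are the overlapping gene or else the nearest within 1 kb, and the gene most like each of the 3 most rhythmic. Members and lists were chosen with earlier results of these data known. Alternatives changed the scaling, pseudocount, filters, thresholds, model terms, membership and libraries.

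Simulated data held 9809 genes, 200 of them changed by a log2 value of 1, which for rhythm is the cosine amplitude. The age test recovered 188 and called 0 others. The rhythm test in young heads recovered 192 and called 13 others, and the test of change recovered 190 and called 9 others. All other genes had flat means, so the age test met no daily courses. Median amplitudes of the CR genes were 0.22 and 0.21 in old and young heads, with a median replicate SD of 0.28 against 0.14 for other genes of at least 5 FPKM. Recovery of changes below 1 was not simulated, so these figures do not give the power for the CR genes. Gene models and coordinates are those of the Ensembl annotation of BDGP6, which shares its assembly with dm6 but is later than the release the authors used. Sequences and promoter motifs were not analysed here.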

Additional observations from a re-analysis of the deposited data

How the results depend on the processing

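Counts of CR genes called were recomputed under each alternative. Without further scaling 23 were higher and 21 lower in old heads, in place of 15 and 36 (against 43.5% and 10.8% of all genes tested without it). Rhythm in old heads had 8 calls with no filter on low values, in place of 15, and rhythm in young heads 3 with time of day as a factor, in place of 9. Harmonic regression on detrended deposited FPKM, at an unadjusted p, called 24 in old and 20 in young heads. At an unadjusted p in limma, 38 were rhythmic in old heads (29.7%, against 22.4% of all genes tested), 32 in young heads (25%, against 20.7%) and 8 changed. Requiring a 1.5-fold change on the log2(scaled FPKM + 1) scale left 17 lower. Of 278 CR genes whose median reached 2 FPKM, 37 were higher (13.3%), 63 lower (22.7%), 24 rhythmic in old heads (8.63%) and 23 in young heads (8.27%). Of 69 whose median reached 10 FPKM, 7 were higher (10.1%) and 21 lower (30.4%). All genes tested had 20.5% higher, 20.9% lower, 8.97% rhythmic in old heads and 7.76% in young heads. Without the first or the second daily cycle 19 or 26 were lower and 0 were rhythmic at either age, in 6 libraries per age. Leaving out single libraries gave 14 to 16 higher, 33 to 37 lower, 7 to 24 rhythmic in old heads, 6 to 12 in young heads and 0 changed. Where a count under an alternative has no share of all genes beside it, here or above, that share is not given. Such a count describes the setting and is not a result about the CR genes. The causes were not tested.

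No sign reversed among named genes. Their 28 values were recomputed 820 times in all, of which 33 lost a call, 27 of them without a daily cycle. With time of day as a factor CR44121, CR45894 and CR43480 lost theirs in young heads and CR44417 in old heads. Without a daily cycle CR44127, CR45125 and CR46065 lost the call with age.

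Whether daily cycles pair the libraries was checked on the difference between the 2 libraries of a group. Over 66 pairs of groups these correlated between -0.32 and 0.32 (median -0.02, 11 above 0.1). For old and young heads of the same time r was 0.28 at ZT 16, 0.15 at ZT 20 and between -0.06 and 0.04 at the other 4 times over all genes tested, and 0.68, 0.49 and -0.08 to 0.12 over the CR genes. As not every pair exceeded 0.1, the libraries were not treated as paired, although the study ran parallel old and young samples in the same lane. A replicate block by daily cycle gave 14 higher, 36 lower, 12 rhythmic in old heads, 7 in young heads and 0 changed. A replicate block of old with young at the same time and cycle, chosen after seeing the data, gave 18 higher and 45 lower, with 50 of the 51 calls kept. Shares of all genes under these blocks are not given.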

Other observations

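Noncoding RNA genes with names of their own were counted beside the CR genes. Of 28 such genes listed, 24 were in the tables and 18 were tested. Of the 18, 3 were higher and 3 lower in old heads by limma, against 20.5% and 20.9% of all genes tested. Their median difference was 0.13. With so few genes the counts are a description and do not set this class apart. *Hsromega*, a heat-inducible nuclear RNA, averaged 157 ± 19.5 scaled FPKM in old heads and 127 ± 17.6 in young heads (SD, n = 12 each, log2 difference 0.30, adjusted p = 0.00167 in limma). *Uhg8*, a host of small nucleolar RNAs, averaged 6.03 ± 1.62 in old heads and 4.36 ± 1.07 in young heads (0.38, adjusted p = 0.00976 in limma). *roX1*, an RNA of male dosage compensation, averaged 40.4 ± 19.3 in old heads and 23.2 ± 16.2 in young heads (0.91, adjusted p = 0.00980 in limma), in flies that the methods describe as females. Lower in old heads were *pncr016:2R* with 12.3 ± 4.6 against 20.1 ± 8.1 in young heads (-0.65, adjusted p = 0.00767 in limma), *sphinx* (-0.42) and *pncr009:3L* (-0.29). The other 12 did not pass, among them the small nucleolar RNA hosts *Uhg1*, with 40.5 ± 8.7 in old and 37.1 ± 6.0 in young heads, and *Uhg4*, with 132 ± 37 and 96.6 ± 21.7 (adjusted p = 0.376 and 0.0162 in limma).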
